A study of Mus musculus with 28 samples.

Results

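The teashirt family is a set of 3 zinc-finger genes in the mouse, Tshz1, Tshz2 and Tshz3, and their RNA levels are described here in cortex that lacks 1 or both working copies of Myt1l. The family was chosen by the symbols of its members, and Tshz1 was selected on its level in adult heterozygous prefrontal cortex (PFC). All 3 members had a row among the 13846 genes listed for embryonic cortex and among the 14104 genes listed for adult PFC, and all 3 passed a filter on low values in both tissues. Because the adult comparison of heterozygous and wild-type mice chose Tshz1, its values are given for all 3 members as a description with no test. The comparisons in embryonic cortex (E14.5, an age at which cortical neurons are being born), and the difference between sexes in the adult response, were tested. Tshz1 was not selected on them, but the members and the gene lists used below were chosen with earlier results of these data known.

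Teashirt proteins are nuclear factors with widely spaced zinc fingers, and the vertebrate members also carry a homeodomain. They were first described in the fly, where teashirt patterns the trunk, and in vertebrates they act largely as transcriptional repressors. In the mouse forebrain, Tshz1 is known for the lateral ganglionic eminence, the intercalated cells of the amygdala and the interneurons of the olfactory bulb, whose migration needs it. Tshz2 is used as a marker of near-projecting neurons of deep cortical layers, and Tshz3 is a gene of cortical projection neurons that is tied to corticostriatal circuits. Myt1l encodes a zinc-finger factor of postmitotic neurons, and the zinc fingers of its family bind DNA at the core letters AAGTT.

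The stretches upstream of Tshz2 and Tshz3 are shown because these core letters can be searched for in them. Both are the 250 bases before the start of the RefSeq gene on GRCm38.p6, the plus strand, 5′ to 3′, and capitals mark AAGTT or its reverse complement AACTT. Sequences are given for 2 of the 3 members.
Tshz2, chr2:169632259-169632508: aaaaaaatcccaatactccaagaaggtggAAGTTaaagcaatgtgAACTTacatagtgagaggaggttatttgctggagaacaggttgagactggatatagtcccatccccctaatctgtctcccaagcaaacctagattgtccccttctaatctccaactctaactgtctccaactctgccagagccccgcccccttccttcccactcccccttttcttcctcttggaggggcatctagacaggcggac
Tshz3, chr7:36697868-36698117: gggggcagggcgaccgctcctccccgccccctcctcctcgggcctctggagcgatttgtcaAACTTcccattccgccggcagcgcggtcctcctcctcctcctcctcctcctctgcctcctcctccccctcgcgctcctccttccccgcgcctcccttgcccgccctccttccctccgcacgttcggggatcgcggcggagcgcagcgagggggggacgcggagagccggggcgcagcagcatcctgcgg
The Tshz2 stretch held 2 matches and the Tshz3 stretch held 1. Both strands were searched in 32851 RefSeq promoters of the same length. Of these, 35.3% held at least 1 match and 8.93% held 2 or more, so such matches are common. Neither member held the longer form AAAGTTT, which contains AAGTT and was found in 4.20% of promoters. The members differed in base composition. The Tshz3 stretch was 74% G and C with 27 CpG pairs, and 95.1% of promoters had a lower GC content. The Tshz2 stretch was 48.8% G and C with 2 CpG pairs, against medians of 52.4% and 6 CpG pairs over all promoters. These are matches of letters in a window, not measured binding sites.

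The RNA sequencing libraries came from E14.5 cortex and from adult PFC of a Myt1l knockout (KO) mouse line. The E14.5 groups were wild type (WT, 6 libraries), heterozygous (Het, 6) and homozygous (Hom, 4). The adult groups were WT and Het with 6 libraries each, 3 labelled female and 3 labelled male. Female was the label of 5 WT embryos, 3 Het embryos and 3 Hom embryos. The sources used here name no allele, strain, adult age or treatment. Each library has its own identifier and is named below by sex and number, such as F07. Whether these stand for separate animals is not spelled out in the labels, and the p-values measure only the spread between these libraries. That spread is what remained after the authors' removal of unwanted variation (RUVr), so it can be smaller than the spread of the unadjusted libraries. Values are in CPM (counts divided by the size of the library), from 1 table per tissue. The tables were normalized separately, so no test was made across them.

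Myt1l, the targeted gene, was at 55.5 ± 8.16 CPM in WT embryos (SD, n = 6), 42.8 ± 11.1 in Het (n = 6) and 20.2 ± 2.35 in Hom (n = 4). Its Hom level was lower than WT (log2 difference -1.43, SE 0.16, limma adjusted p = 0.000112), while its Het level did not pass the test (adjusted p = 0.125). In adult PFC it was at 158 ± 8.48 CPM in WT and 114 ± 6.70 in Het (n = 6 each), with all 6 Het libraries below every WT library (limma adjusted p = 0.000139, and 0.0627 without trend and robust moderation). The libraries Het F10 and Het M11 of the embryos carried levels of Y-linked transcripts against their labelled sex, so results with sex as a covariate were also computed without them. The recovered totals, which the authors had scaled and which are not sequencing depths, lay between 27827467 and 30811856 in embryos and between 19601294 and 21275162 in adults.

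Set per kilobase of annotated exon, the 3 members stood in a different order in embryonic and adult tissue. In WT embryos Tshz1 stood at 4.68 ± 0.364 CPM per kb, Tshz3 at 2.23 ± 0.207 and Tshz2 at 0.119 ± 0.0585 (SD, n = 6). The WT embryo libraries of these 3 genes did not overlap on this scale. In adult WT PFC Tshz3 came first at 2.92 ± 0.318 CPM per kb, then Tshz1 at 1.65 ± 0.257 and Tshz2 at 0.518 ± 0.0567, again without overlap. In adult Het PFC, Tshz1 at 3.10 ± 1.13 CPM per kb (1.81 to 4.56) overlapped with Tshz3 at 3.33 ± 0.533 (2.60 to 4.10), and these neighbours did not differ beyond their spread. Among all listed genes, mean CPM put Tshz1 above 67.9% of genes at E14.5 and above 45.7% in the PFC. Tshz3 sat near the middle in both, above 51.6% and 50.6%. Tshz2 was a low gene, above 13.0% and 25.1%.

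**Figure D1:**
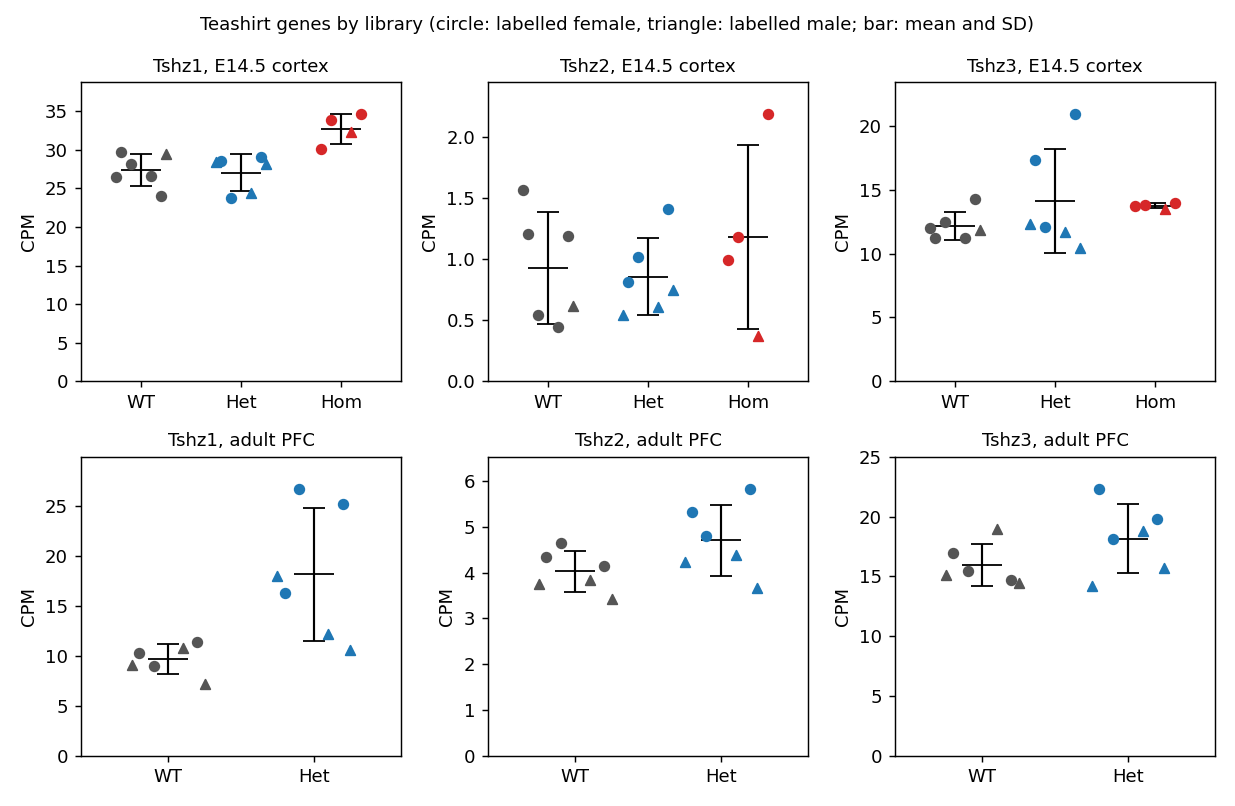
CPM of Tshz1, Tshz2 and Tshz3 (columns) in each library of E14.5 cortex (top) and adult PFC (bottom), by genotype, with circles for labelled females, triangles for labelled males and bars for the mean and SD. The 4 Hom embryos lie between 30.1 and 34.6 CPM for Tshz1, above all WT and Het embryos, and 5 of 6 adult Het libraries lie above the highest WT library.

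Tshz1 was nearly level between WT and Het embryos and stood somewhat above both in Hom embryos. The WT libraries ranged from 24.0 to 29.7 CPM with a median of 27.4, the Het libraries from 23.7 to 29.1 with a median of 28.3, and the Hom libraries were at 30.1, 32.3, 33.9 and 34.6. The WT and Het libraries overlapped almost fully, and no Hom library overlapped with either. The Hom mean of 32.7 ± 1.99 CPM (n = 4) was 119% of the WT mean of 27.4 ± 2.13 (n = 6). The log2 difference of Hom from WT was 0.25 (SE 0.10, 95% interval 0.05 to 0.45), which did not pass limma's test over all genes (adjusted p = 0.110). A two-sided exact permutation test of this single gene gave p = 0.00952 for Hom against WT and p = 0.00476 for Hom against Het. These exact values follow from the complete separation of the Hom libraries and are no separate result. The tests used no sex covariate, their p-values are not adjusted, and 9 such tests were made. A complete separation upward of Hom from WT was seen in 4.8% of the genes tested, and of Hom from Het in 0.37%. Tshz1 was the 1 member with either.

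Tshz1 in Het embryos differed from WT by -0.03 on the log2 scale (SE 0.09, 95% interval -0.21 to 0.16, adjusted p = 0.899), at 27.1 ± 2.35 CPM. Hom against Het gave 0.28 (SE 0.10, adjusted p = 0.957). The Hom difference of Tshz1 stayed between 0.22 and 0.29 over 29 alternatives, with adjusted p from 0.0593 to 0.253.

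Tshz2 was low in these embryo libraries, near the filter of 1 CPM. It reached 1 CPM in 7 of 16 libraries, while a gene with 3 counts would stand at no more than 0.103 CPM. The WT libraries ranged from 0.445 to 1.57 CPM with a median of 0.902, the Het libraries from 0.543 to 1.41 with a median of 0.778, and the Hom libraries were at 0.370, 0.991, 1.18 and 2.18. The lowest and the highest of the 16 libraries were both Hom, and the 3 groups overlapped. Hom differed from WT by 0.24 on the log2 scale (SE 0.28, 95% interval -0.35 to 0.82, adjusted p = 0.663) and Het by 0.16 (SE 0.27, adjusted p = 0.782). Hom against Het gave 0.08 (SE 0.29, adjusted p = 0.990).

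Tshz3 varied most among Het embryos. The WT libraries ranged from 11.2 to 14.3 CPM with a median of 11.9, the Het libraries from 10.4 to 20.9 with a median of 12.2, and the Hom libraries were at 13.5, 13.7, 13.8 and 13.95. Het F07 at 20.9 and Het F02 at 17.4 CPM stood above every other embryo, and the remaining 4 Het libraries were between 10.4 and 12.3. Het F07 and F02 also had the highest summed levels of deep-layer marker genes among the embryos, 553 and 545 CPM. Hom F04 had a sum of 540 CPM with Tshz3 at 13.95. The part of these cells in the Tshz3 values was not tested. The 4 Hom libraries kept within the WT range, with an SD of 0.178 CPM against 4.09 in Het. Het differed from WT by 0.26 (SE 0.13, 95% interval -0.02 to 0.53, adjusted p = 0.260) and Hom by 0.20 (SE 0.14, adjusted p = 0.433). Hom against Het gave -0.06 (SE 0.15, adjusted p = 0.983), and its sign turned, to 0.07, without Het F07.

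Over the family, 0 of 3 members were called at an adjusted p under 0.05 in Hom against WT, where limma called 7.6% of genes. Likewise 0 of 3 were called in Het against WT (5.83% of genes) and 0 of 3 in Hom against Het (0.00805%, which is Myt1l alone). Before adjustment, limma put Tshz1 under 0.05 in Hom against WT and in Hom against Het, and the other two members in neither. The comparisons with WT share the WT libraries and are not independent of each other.

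**Figure D2:**
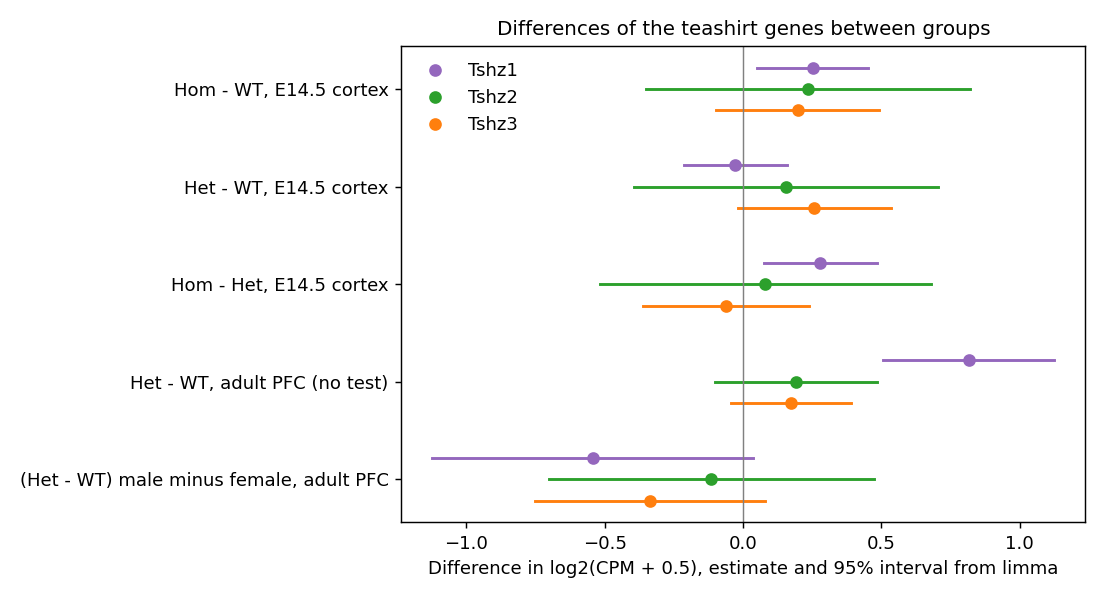
Differences of Tshz1, Tshz2 and Tshz3 between groups in log2(CPM + 0.5), with points for the limma estimate and lines for its 95% interval. The E14.5 intervals of Tshz2 and Tshz3 include 0, and the untested adult Het estimate of Tshz1 is the largest shown, at 0.82.

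In adult PFC, the values that selected Tshz1 were as follows. The WT libraries ranged from 7.21 to 11.4 CPM with a median of 9.69. The Het libraries were at 10.6 (M09), 12.1 (M05), 16.2 (F02), 18.0 (M08), 25.1 (F04) and 26.7 CPM (F07). Het M09 fell within the WT range and the other 5 Het libraries were above it. The means were 9.62 ± 1.5 CPM in WT and 18.1 ± 6.63 in Het (SD, n = 6 each). The log2 difference was 0.82 (SE 0.15, 95% interval 0.51 to 1.13), a fold of 1.76 on the log2(CPM + 0.5) scale, given with no test. In bulk tissue, a change in the number of cells of a type and a change in RNA per cell cannot be told apart.

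Genes of the olfactory bulb moved with Tshz1 among these libraries. The list holds Th (tyrosine hydroxylase) and Calb2 (calretinin), which mark bulb interneurons, Eomes, Tbx21 and Cdhr1, which mark its mitral and tufted cells, and Doc2g. Its summed level ranged from 91.7 to 234 CPM in WT with a median of 119, and from 79.9 to 456 in Het with a median of 238. Most of this sum was Calb2 in each library, such as 63.4 of 91.7 CPM in WT M11 and 302 of 456 in Het F07, so the sum follows Calb2 closely. Calb2 is not a gene of the bulb alone, and had a mean of 52.6 CPM in WT E14.5 cortex. The 3 Het libraries with the highest Tshz1 also held the 3 highest sums, at 456 (F07), 319 (F04) and 332 CPM (M08). The order was not the same throughout. Het M05 had the lowest sum of all 12 libraries, 79.9 CPM, with Tshz1 at 12.1, and WT F06 had a sum of 234 with Tshz1 at 11.4.

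Calb2 was at 302, 218 and 222 CPM in Het F07, F04 and M08, against 63.4 to 156 in WT. Th was at 59.9, 41.7 and 44.5 CPM in the same libraries, against 8.71 to 31.6 in WT. Sp8 is a factor of olfactory bulb interneurons and their progenitors that stands in the list of the ganglionic eminence and striatum, not in that of the bulb. It was at 38.7, 24.7 and 22.6 CPM there, against 5.84 to 13.3 in WT. Eomes and Tbx21 were low everywhere, from 0.146 to 4.26 and from 0.147 to 4.16 CPM, with the highest value of each in Het F07. All 4 of the list's genes that passed the filter had a Het estimate above 0, with a median of 0.72 against 0.01 over all genes. The medians of the other 11 marker lists with tested genes lay between -0.14 and 0.14.

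Leaving out the 4 libraries whose olfactory bulb sum was over 200 CPM (Het F04, F07 and M08, and WT F06) lowered the Tshz1 estimate. Tshz1 was then at 13.0 ± 2.94 CPM in 3 Het libraries (10.6 to 16.2) and 9.27 ± 1.38 in 5 WT libraries (7.21 to 10.8). The log2 difference fell from 0.82 to 0.47 (SE 0.17). This limit was set after the values had been seen. The libraries that it removes hold the 3 highest Tshz1 values, so a smaller estimate was bound to follow and is no test. The part of these cells in the Tshz1 difference was not tested. Genes of the striatum and ganglionic eminence, where Tshz1 is also expressed, had summed levels of 638 to 744 CPM in WT and 637 to 786 in Het. Those ranges overlapped, and 9 of the 18 genes tested had a Het estimate above 0. The estimates of the transcription factors Sp8 (0.96, SE 0.39), Sp9 (0.85, SE 0.29), Dlx5 (0.41, SE 0.16), Dlx1 (0.24, SE 0.13) and Meis2 (0.20, SE 0.07) were above 0. Those of Ppp1r1b (-0.21, SE 0.07), Penk (-0.18, SE 0.08), Pdyn (-0.21, SE 0.10) and Rgs9 (-0.25, SE 0.14), genes of mature striatal neurons, were below it. The median was -0.00, and these genes were named after their values were seen.

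**Figure D3:**
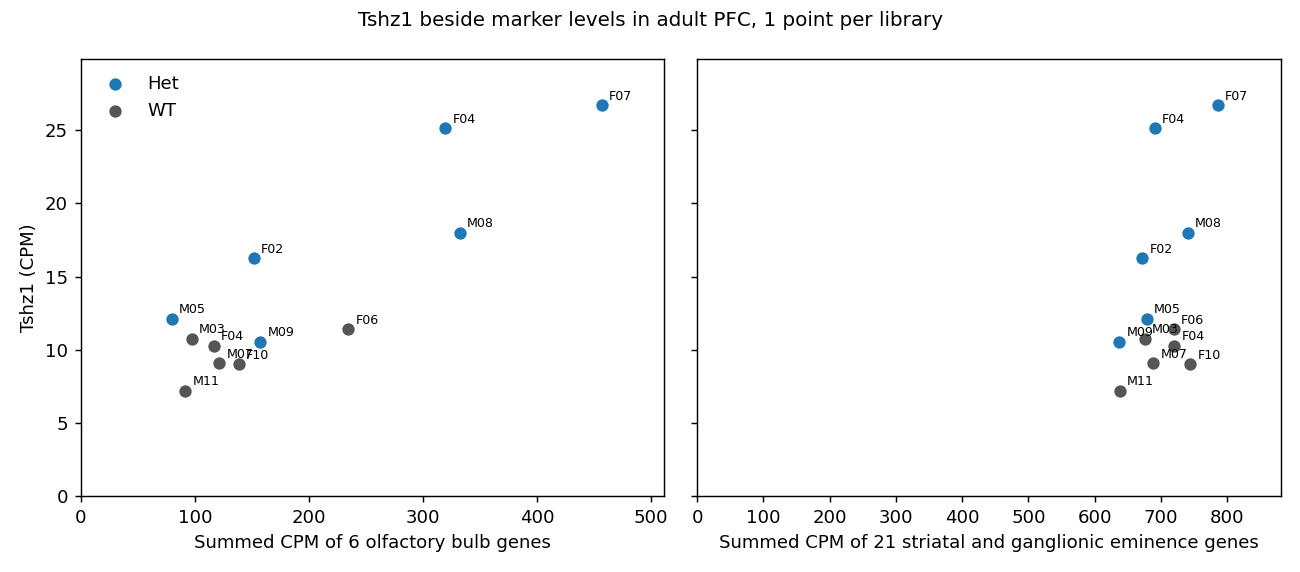
Tshz1 (CPM) in each adult PFC library against the summed CPM of 6 olfactory bulb genes (left) and of 21 striatal and ganglionic eminence genes (right), with Het in blue and WT in grey. On the left, Het F07, F04 and M08 are high on both axes, and on the right the genotypes overlap along the horizontal axis.

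Tshz2 and Tshz3 differed less between the adult genotypes, and these values are also given with no test. For Tshz2 the WT libraries ranged from 3.43 to 4.65 CPM with a median of 4.00, and the Het libraries from 3.67 to 5.84 with a median of 4.59. For Tshz3 the WT libraries ranged from 14.4 to 19.0 CPM with a median of 15.3, and the Het libraries from 14.2 to 22.3 with a median of 18.5. The groups overlapped for both genes, with 3 of 6 Het libraries above the highest WT library for Tshz2 and 2 of 6 for Tshz3. The log2 differences were 0.19 (SE 0.14) for Tshz2 and 0.17 (SE 0.11) for Tshz3. Their 95% intervals ran from -0.10 to 0.49 and from -0.04 to 0.39. Without the 4 libraries of a high olfactory bulb sum the estimates were 0.15 and 0.22.

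Markers of the near-projecting neurons that carry Tshz2 in the cortex went both ways in adult Het, and their part in the Tshz2 values was not tested. The list of Slc17a8, Trhr, Lypd1 and Rapgef3 summed to 25.3 to 34.6 CPM in WT and 25.05 to 32.3 in Het PFC, which is mostly Lypd1 and Rapgef3. Lypd1 was at 15.4 CPM in WT and 13.95 in Het, and Rapgef3 at 13.7 and 12.8. Trhr was at 0.963 and 1.38 CPM, and Slc17a8, which did not pass the filter, at 0.603 and 0.896.

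By labelled sex, the Het females had the higher Tshz1 values. They were at 22.7 ± 5.64 CPM and the Het males at 13.6 ± 3.92, against 10.2 ± 1.2 in WT females and 9.02 ± 1.78 in WT males (SD, n = 3 each). The Het females ranged from 16.2 to 26.7 CPM and the WT females from 9.00 to 11.4. The Het males ranged from 10.6 to 18.0 CPM and the WT males from 7.21 to 10.8. These are the values that selected Tshz1. The Het difference, fitted within each sex with no test, was 1.09 (SE 0.17) in females and 0.54 (SE 0.19) in males. The difference between the sexes themselves was tested as an interaction and did not pass. Male minus female gave -0.54 for Tshz1 (SE 0.28, 95% interval -1.12 to 0.04, limma adjusted p = 0.617), -0.11 for Tshz2 (SE 0.28, adjusted p = 0.936) and -0.34 for Tshz3 (SE 0.20, adjusted p = 0.675). So 0 of 3 members were called, and limma called 0% of the 12870 genes tested, with 1092 genes at an unadjusted p under 0.05. Of the libraries with a high olfactory bulb sum, Het F04, Het F07 and WT F06 are labelled female.

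The identifiers of adult libraries begin with 1 of 3 numbers, whose meaning the labels do not give. Among libraries of the prefix 14308, all labelled male, Tshz1 was at 12.1 and 18.0 CPM in Het and 9.10 and 10.8 in WT. Within 14309, it ran from 10.6 to 26.7 CPM in 4 Het libraries and from 7.21 to 11.4 in 3 WT libraries. The third prefix holds 1 WT library and allows no comparison. With this prefix as a block the adult estimate of Tshz1 was 0.79, and the E14.5 Hom estimate was 0.25 (adjusted p = 0.141).

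The members were compared with each other as deviations from their genotype means, in 3 pairs per tissue and 6 pairs in all. In adult PFC, Tshz1 and Tshz2 gave a Pearson r of 0.659 over 12 libraries (permutation p = 0.0202, adjusted 0.121) and a Spearman rho of 0.497 (permutation p = 0.105, adjusted 0.316). Without the 2 libraries farthest from the median of Tshz1, r was 0.594. Tshz2 and Tshz3 gave r = 0.587 (permutation p = 0.0441, adjusted 0.132) and rho = 0.685 (permutation p = 0.0171, adjusted 0.103), with r = 0.491 without the 2 farthest. Tshz1 and Tshz3 gave r = 0.282 (permutation p = 0.375, adjusted 0.562). The 3 E14.5 values over 16 libraries were 0.0574, 0.189 and 0.349, and none of the 6 pairs passed the adjusted threshold.

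The genes most like each member across the libraries of a tissue differed between members. These are descriptions over libraries that share genotype, normalization and, in the PFC, the levels of the olfactory bulb list. In adult PFC the nearest 3 to Tshz1 among 10268 genes, over 12 libraries, were Syt6, a synaptotagmin (r = 0.944), Notch2, a Notch receptor (r = 0.933), and Btg1, an antiproliferative factor (r = 0.930). Syt6 was at 16.8, 12.9 and 14.1 CPM in Het F07, F04 and M08 and at 6.23 to 8.60 in WT. Sp8 ranked 18th at r = 0.892. The genes nearest to Tshz2 were Amer2 (r = 0.921), Ttf1 (r = 0.920) and Maf (r = 0.897). Those nearest to Tshz3 were B3gat1 (r = 0.940), Gatad2b (r = 0.926) and Gsk3b (r = 0.919). At E14.5, over 16 libraries and 9259 genes, Rnf44 (r = 0.871) and Zfp618 (r = 0.830) came first for Tshz1. Cdh11 (r = 0.791), Acss2 (r = 0.764) and Rcor1 (r = 0.752) did for Tshz2, and Magee1 (r = 0.899), Caml (r = 0.868) and Utp14a (r = 0.865) for Tshz3.

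On GRCm38, Tshz1 (ENSMUSG00000046982) spans chromosome 18 from 84011627 to 84087706 on the minus strand, with 5848 bp of annotated exon. Tshz2 (ENSMUSG00000047907) lies on the plus strand of chromosome 2, between 169633013 and 170071816, with 7781 bp of exon. Tshz3 (ENSMUSG00000021217) lies on the plus strand of chromosome 7, between 36698118 and 36773553, with 5456 bp of exon. No annotated gene overlaps Tshz1, while 3 overlap Tshz2 on the opposite strand (Gm26883, AY702102 and A630075F10Rik) and 5 overlap Tshz3 (Gm37452, Gm38340, E230020A03Rik, Gm37827 and, on the opposite strand, Gm24550). None of these 8 had a row in either table. The sources used here do not say if counting used the strand, so reads of overlapping genes cannot be told apart from those of Tshz2 and Tshz3.

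Zadh2, an oxidoreductase gene, begins 357 bp from Tshz1 on the other strand. It was at 10.7 CPM in adult WT and 11.7 in adult Het, a log2 difference of 0.09 (SE 0.13), beside 0.82 for Tshz1. At E14.5 its means were 4.58 CPM in WT, 4.78 in Het and 4.65 in Hom. The zinc-finger gene Zfp516 on the far side of Tshz1 was at 1.30 CPM in adult WT and 1.48 in adult Het. Beside Tshz2 lie Zfp64 and Zfp217, and beside Tshz3 lie Zfp507 and Zfp536, all zinc-finger genes. None of the 6 neighbours was called in the 3 E14.5 comparisons. Over all genes, limma called 7.6% in Hom against WT, 5.83% in Het against WT and 0.00805% in Hom against Het, so no call among 6 genes is near those shares. The largest Hom estimate was that of Zfp536, 0.36 (SE 0.15, adjusted p = 0.137). No neighbour was called in the interaction of genotype and sex, where 0% of all genes were called. Zfp217, at 0.449 CPM in adult WT, was not tested for it.

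The teashirt genes are placed in the zinc-finger class of homeobox genes. Of 11 other genes of this class, 10 were listed at E14.5 (all but Adnp) and all 10 were tested. Zeb2, a repressor with roles in cortical neurons and interneurons, was higher in Hom than in WT, at 46.8 against 36.6 CPM (0.35, SE 0.09, adjusted p = 0.0137). This call was lost without Hom F04 (adjusted p = 0.0551). The other 9 did not pass in Hom and none of the 10 passed in Het or in Hom against Het. These counts are near the shares over all genes, 7.6% in Hom and 5.83% in Het. Homez, at 6.80 CPM in Hom and 4.78 in WT (0.46, SE 0.17, adjusted p = 0.101), ranked sixth in likeness to Tshz1 at E14.5 with r = 0.778. The median Hom estimate of the class was 0.15, against 0.02 over all genes, and the median Het estimate was 0.06, against 0.03. In adult PFC, 10 members were tested and the median Het estimate was 0.05, given with no test. Zfhx4 was at 4.37 CPM in WT and 6.14 in Het, and Zhx2 at 5.01 and 3.91.

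Reported partners and targets of teashirt proteins gave calls in both directions at E14.5. Of 10 genes, 8 were listed (all but Casp4 and Myocd) and tested, with 2 higher and 1 lower in Hom and the same counts in Het, against 7.6% and 5.83% of all genes called. This list was chosen with earlier results of these data known, so its counts are no independent test. Ctbp1, a corepressor that binds teashirt proteins, was at 25.1 CPM in WT, 32.0 in Het and 38.6 in Hom. It was higher in Hom (0.62, SE 0.12, adjusted p = 0.00353) and in Het (0.41, SE 0.11, adjusted p = 0.0322). Its paralog Ctbp2 did not pass, at 48.6 CPM in WT and 48.0 in Hom (-0.02, SE 0.10). The 2 histone deacetylases moved in opposite directions. Hdac2 was at 87.8 CPM in WT and higher in Het, 113 (0.39, adjusted p = 0.0158), and in Hom, 117 (0.42, adjusted p = 0.0125). Hdac1 was at 356 CPM in WT and lower in Het, 289 (-0.31, adjusted p = 0.00648), and in Hom, 304 (-0.23, adjusted p = 0.0330).

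The comparisons of these 8 genes share their WT libraries, and none was called in Hom against Het. The Hom call of Ctbp1 and the Het call of Hdac1 held in all 28 alternatives. The Hom call of Hdac1 was lost without any 1 of Hom F01, F04, F09 and M02 and WT F04, F06, F09 and F12 (adjusted p from 0.0507 to 0.0916). It was also lost with every library set to the same total (0.0573) and without trend and robust moderation (0.0887). The same held with the directions that RUVr left almost without variance as covariates (0.0784). The Het call of Ctbp1 was lost without any 1 of WT F04, F06, F12 and M03, Het F07 and M01 or Hom M02 (0.0539 to 0.135). It was also lost without that moderation (0.0771), with no sex covariate (0.0690), with the RUVr directions (0.0575) and in a fit of Het and WT alone (0.0682). The calls of Hdac2 were lost without Het F02 or F07 (Het, 0.0555 and 0.0944) and without Hom F01 or F04 (Hom, 0.0594 and 0.0501), and both without that moderation (0.0698 and 0.0559). The median Hom estimate of the 8 was 0.0248, against 0.0164 over all genes. In adult PFC their median Het estimate was 0.13, given with no test, and Prokr2, a prokineticin receptor gene of the olfactory bulb, was at 1.58 CPM in WT and 2.43 in Het.

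**Figure D4:**
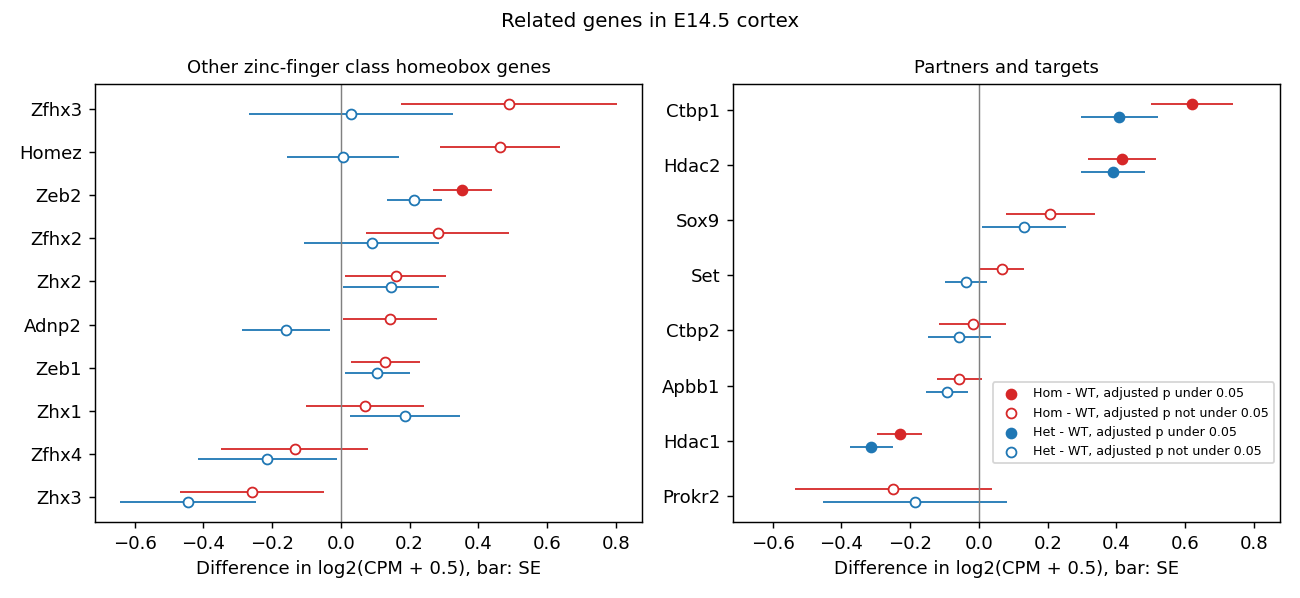
Differences from WT in E14.5 cortex, in log2(CPM + 0.5) with SE bars, of 10 other zinc-finger class homeobox genes (left) and 8 reported partners and targets of teashirt proteins (right), with Hom in red, Het in blue and filled points for an adjusted p under 0.05. Zeb2 is filled for Hom, and Ctbp1, Hdac2 and Hdac1 are filled for both genotypes.

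Markers of the cells that are rich in Tshz1 gave 3 calls at E14.5. Of 24 genes of the lateral ganglionic eminence, striatum and intercalated cells, 19 were listed and 18 tested, and 3 were higher in Hom than in WT, where 7.6% of all genes were called in either direction. Earlier results of these data were known when this list was chosen, so its count is no independent test. Sp9, a factor of striatal and bulb-bound neurons, was at 1.27 CPM in WT and 4.15 in Hom (1.26, SE 0.28, adjusted p = 0.00811). Dlx1, a homeobox gene of inhibitory neurons, was at 11.7 and 23.8 CPM (0.89, SE 0.23, adjusted p = 0.0262). Ppp1r1b, which encodes DARPP-32 of striatal neurons, was at 2.99 and 5.12 CPM (0.72, SE 0.20, adjusted p = 0.0270). The call of Dlx1 was lost without Hom F01 or M02 or WT F04 or F12 (adjusted p from 0.0543 to 0.0716), without trend and robust moderation (0.0555), with the RUVr directions (0.0511) and in a fit of Hom and WT alone (0.0614). That of Ppp1r1b was lost without any 1 Hom library or WT F04 or F12 (0.0564 to 0.0834) and with the RUVr directions (0.0621).

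The list's summed level ranged from 206 to 243 CPM in WT embryos, from 224 to 315 in Het and from 242 to 340 in Hom, so it was high in Het as well, where none of its genes was called. Its median Hom estimate was 0.27 and its median Het estimate 0.20. Within the 4 Hom libraries, those with the higher sums had the lower Tshz1 levels. Hom F01 and M02 had sums of 340 and 308 CPM with Tshz1 at 30.1 and 32.3, while F04 and F09 had sums of 262 and 242 CPM with Tshz1 at 34.6 and 33.9. Over all E14.5 libraries, r with Tshz1 was 0.343 for Dlx1, 0.355 for Sp8 and 0.349 for Meis2. It was -0.215 for Ebf1 and -0.166 for Foxp2. A large part of the sum was Meis2, at 112 CPM in WT, 131 in Het and 132 in Hom. The defining genes Gsx2, Dlx6, Drd2 and Oprm1 had no row at E14.5. The part of these cells in the Tshz1 values was not tested.

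Among the other marker lists at E14.5, limma called Tbr1 of 10 deep-layer genes higher in Hom and in Het. The cortex identity gene Neurod6, the upper-layer genes Pou3f2 and Unc5d, and Ogn of 5 meningeal genes were higher in Het. No gene was called in an E14.5 comparison in the lists for near-projecting neurons (1 tested), olfactory bulb (2), thalamus (3) or astrocytes (3). The same held for the oligodendrocyte lineage (4), microglia (4), endothelium (4) and choroid plexus (3). With 7.6% of all genes called in Hom and 5.83% in Het, no calls among so few genes do not show a lack of change. The choroid plexus genes had Het estimates of 0.73 (Ttr), 0.49 (Folr1) and 0.59 (Clic6) and Hom estimates of 0.02, -0.10 and -0.07. In adult PFC no gene of any list was called in the interaction of genotype and sex, where 0% of all genes were called.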

How the data were processed

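RNA was measured in 16 libraries of E14.5 cortex and 12 of adult PFC. Per the labels' protocols, a Zymo kit served for extraction and the SMARTer Ultra Low kit for the libraries. The tools Trimmomatic, Bowtie2, STAR and HTSeq and the build mm10 are named per the submitters' processing notes, without versions or roles. The authors deposited a table for each tissue whose title gives CPM after RUVr (a removal of unwanted variation). The values themselves show that the deposited unit is log2 CPM, with 2 as the prior count. The log2 values were inverted to CPM. Values under 2000 came out as whole numbers in 100% of cases at a tolerance of 0.01, but these had been adjusted and scaled by the authors, so the depth of each library is unknown.

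Genes that reached 1 CPM in 4 or more E14.5 libraries, or 6 or more PFC libraries, were fitted as log2(CPM + 0.5) with limma 3.58.1 in R 4.3.3 (eBayes with trend and robust), which kept 12429 and 12870 genes. Genotype and labelled sex were covariates, and p-values were adjusted by Benjamini-Hochberg over all genes tested. Differences on this scale understate changes of low genes. Scripts were tested on simulated data. Single-gene exact permutation tests used no covariate, and correlations used 100000 resamples. Annotation was GENCODE vM21 on GRCm38 and promoters came from RefSeq. Figures were drawn with matplotlib 3.10.9. The members and all lists (zinc-finger class homeobox genes, partners and targets, and cell type markers) were chosen with earlier results of these data known. Genes named beside the members are the targeted gene, the 3 most like each member, its neighbours, at most 4 per list by the lowest p, and marker genes named beside Tshz1, of which Syt6 and Sp8 by library, Zfhx4, Zhx2 and Homez were picked after their values were seen. Alternatives changed the scaling, the pseudocount, the filter, the covariates and the moderation, and left out each library. The limit on the olfactory bulb sum was added after the data were seen. Some genes that these rules select are not reported here.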

Additional observations from a re-analysis of the deposited data

How the results depend on the processing

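Of 394 alternative values for the 3 members, 378 kept their direction and their side of the threshold, or moved by less than 1 SD where no test was made. At E14.5, Tshz1 in Het against WT turned to 0.0165 (log2) without the 2 libraries that go against their labelled sex, and ran from -0.063 to 0.0221 as each library was left out, above 0 without Het F10 or WT M03. Tshz2 in Het against WT turned to -0.042 with no sex covariate, also the value of the exact permutation test (p = 0.864). Tshz2 in Hom against Het ran from -0.12 (without Hom F04) to 0.295 over the libraries left out, and was also under 0 without Het F02 (-0.00586). Tshz3 in Hom against Het turned to 0.00472 with no sex covariate and in the exact permutation test (p = 0.986), and ran from -0.155 to 0.0662 over the libraries left out. The exact permutation test, which is not adjusted over genes, passed 0.05 for Tshz1 in Hom against WT (0.254, p = 0.00952) and Hom against Het (0.272, p = 0.00476), and for Tshz3 in Hom against WT (0.175, p = 0.0381). The untested adult Het estimate of Tshz1 was 1.09 in labelled females, 0.544 in labelled males and 0.471 without the libraries of a high olfactory bulb sum. With the identifier prefix as a block, none of the members' calls changed. Tshz2 was not tested under the filter of 5 CPM, and the interaction has no fit without sex.

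Counts over all genes moved more than the members did. The 944 genes called in Hom against WT ranged from 468 (eBayes without trend and robust) to 1399 and were 489 to 592 without any 1 Hom library. Their split was 401 higher and 543 lower, against 683 and 381 with each library set to the same total and 294 and 746 with median centring. The 724 called in Het against WT ranged from 131 (without Het F07) to 1176 (without Het M07), with a split of 353 higher and 371 lower, against 213 and 509 with median centring. With the directions that RUVr left almost without variance as covariates, 511 genes were called in Hom against WT and 335 in Het against WT. The single call in Hom against Het was lost in 15 of 28 alternatives, and the interaction gave 13 calls without WT F06 and 2 without Het F07. The low level of Tshz2 in embryos, and groups of 3 per sex in the adult, limit what these data can show.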
